A study of Mus musculus with 375 samples.

Results

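Wild-type (WT) cardiomyocytes from pressure-overloaded hearts were divided by their own level of Nppa, the gene of atrial natriuretic peptide, and the cells richest in it were set against the poorest. The cells were selected on Nppa as follows. Cells with at least 3000 detected genes were kept, Nppa was scaled to counts-per-million (CPM) of the cell's nuclear gene counts, and each numbered set of cells was ranked and divided into 3 terciles of near equal size. The Nppa-high tercile held 19 cells in WT set 1 and 20 in WT set 2, and the Nppa-low tercile held 19 and 20. These 78 cells came from 121 WT cells kept of 128, out of 375 cells in the series. Because Nppa chose the cells, its own values are a description and no test was made of it, whereas every other gene was compared on counts summed per tercile and set.

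The cells were C57BL/6N mouse cardiomyocytes from the left ventricle, taken 2 weeks after surgery for transverse aortic constriction, or TAC, in which a tie around the aorta makes the left ventricle pump against high pressure. The mice were 8 weeks old. Cells of mice depleted of CD8 T cells and of mice labelled CD3e -/-, also after TAC, serve here for comparison only, and cells of unoperated or sham-operated hearts were not analysed here. Hearts were digested by Langendorff perfusion, rod-shaped living cells were picked by pipette, and libraries were made with Smart-seq2, which reads whole transcripts of 1 cell at a time. Each group came as 2 numbered sets, so n = 2 throughout. The study's methods name 2 mice as the source of the single cells, without saying whether this is per group. The labels do not say which mouse gave which set, and p-values may therefore measure only a technical spread. Picking by shape limits these cells to intact rods.

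Atrial natriuretic peptide is a hormone that lowers blood volume and pressure. Working ventricular muscle makes it in the fetus and largely stops after birth, while the atria keep making it. A loaded or stretched adult ventricle switches Nppa on again, commonly together with Nppb, the gene of brain natriuretic peptide, and with fetal contractile genes such as Myh7 and Acta1. In the mouse heart this return is known to be patchy, with Nppa strong in some cells and faint in their neighbours.

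Nppa lies on chromosome 4 at 148000722 to 148002079 (mm10). Its upstream sequence is shown because it is the switch that cardiac transcription factors act on, and several of those factors are described further on. The window is chr4:148000472-148000721 on the plus strand (RefSeq, GRCm38.p6), the 250 bases before the annotated start. Both strands were searched.
Nppa upstream: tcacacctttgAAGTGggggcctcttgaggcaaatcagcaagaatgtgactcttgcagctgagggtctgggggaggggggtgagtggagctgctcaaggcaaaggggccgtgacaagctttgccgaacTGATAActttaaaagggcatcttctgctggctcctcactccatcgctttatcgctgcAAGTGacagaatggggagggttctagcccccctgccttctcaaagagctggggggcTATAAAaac
The capitals mark the letters of 3 motifs. The motif TGATAA, a form that GATA factors read, was found once, from −122 to −117 before the start, and 7.94% of 32851 upstream windows of this length hold it. The core that NKX2-5 reads, AAGTG, was found from −239 to −235 and from −65 to −61 and is held by 40.7% of windows. The letters TATAAA, a spelling of the TATA motif, were found from −9 to −4 of the annotated start and are held by 12.4%. The motifs do not overlap. A match of letters is a description and not a site of binding.

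Nppa varied over a wide range among the cells of each set. In WT set 1 the Nppa-low cells ran from 0 to 35.8 CPM with a median of 4.78, and the Nppa-high cells from 321.9 to 2819 CPM with a median of 709. In WT set 2 the low cells ran from 0 to 13.3 CPM with a median of 6.33, and the high cells from 178 to 8939 CPM with a median of 426. The high tercile, which was filled by ranking on Nppa, carried 77.8% and 91.5% of all Nppa counts of its set. A single cell held 10.9% of the counts in set 1 and 30.8% in set 2. No Nppa count was read in 7 cells of set 1 and in 3 of set 2, all in the low terciles.

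**Figure D1:**
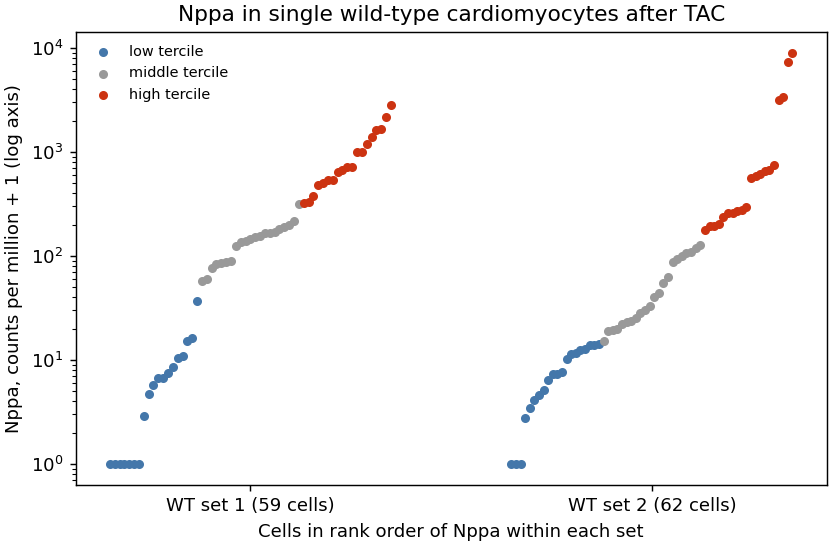
Nppa in each WT cell, in counts-per-million plus 1 on a log axis, with the 59 cells of set 1 and the 62 cells of set 2 in rank order and coloured by tercile. The high terciles begin at 321.9 and 178 CPM, and the highest cells reach 2819 and 8939 CPM.

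The terciles are cuts in a continuous range and not separate kinds of cell. At the lower border the last low cell and the first middle cell stood at 35.8 and 56.1 CPM in set 1, and at 13.3 and 14.3 CPM in set 2. At the upper border the last middle cell and the first high cell stood at 314.5 and 321.9 CPM in set 1, and at 126 and 178 CPM in set 2. After summing, Nppa stood at 7.77, 143 and 794 CPM in the low, middle and high terciles of set 1, and at 6.47, 60.5 and 1217 CPM in those of set 2.

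No measure of depth, detected genes or mitochondrial share rose or fell steadily through the terciles of both sets. The number of detected genes rose steadily in set 1 alone, and the share of mitochondrial transcripts in set 2 alone. The 6 sums held 5280811 to 9876403 nuclear counts, and a cell of the low, middle and high terciles had a median of 299162, 469549 and 413073 in set 1, and of 222877, 297821 and 224054 in set 2. The median number of detected genes was 5222, 5514 and 5531 in set 1, and 4610.5, 5160 and 4595 in set 2. Transcripts encoded in mitochondrial DNA took a median of 81.6%, 74.6% and 78% of counts in set 1, and 83.8%, 84.8% and 85.9% in set 2. Over the cells of a set, Spearman's rho of Nppa with the nuclear total was −0.098 and −0.042, and with the mitochondrial share 0.18 and 0.09. The 10 cardiomyocyte markers on the list (such as Myh6, Tnnt2 and Ttn) were abundant in every tercile. They summed to 134023 to 146878 CPM in set 1 and 176041 to 193227 CPM in set 2, so the label of cardiomyocyte held for the summed cells. Single cells were not checked one by one. Of these markers 4 (40%) were lower in the high tercile in both sets, beside 23.4% of all genes, and 0 were higher in both. Their median log2 difference was −0.10, and none passed.

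Little else was called between Nppa-high and Nppa-low cells. Differences between the sets in a gene's level were taken out as a block. The spread tested against was therefore how far the pattern over the terciles differed between sets, pooled with a trend over all genes. A gene's own sums gave 2 degrees of freedom, and the trend gave a median of 7.92 more. The SE and p-value of a single gene thus rest largely on other genes. By edgeR's quasi-likelihood test, 1 of 10312 genes passed a Benjamini-Hochberg adjusted p of 0.05 (0.0097%), and that gene was Lars2. At an unadjusted p under 0.05 there were 208 genes with higher levels in Nppa-high cells (2.02%) and 220 with lower levels (2.13%). On the same sums DESeq2 called 25 genes and limma-voom 1. Over all tested genes, 26.2% stood higher in the high tercile in both sets and 23.4% stood lower in both, and the median log2 difference was 0.00. What could be seen depended on abundance, since a median standard error (SE) of the log2 difference of 0.11 applied to the 145 genes with at least 1000 CPM, 0.47 to the 4543 genes with at least 20 CPM, and 0.86 to all genes. Within the 145 abundant genes no log2 difference was larger than that of Lars2, 0.83.

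**Figure D2:**
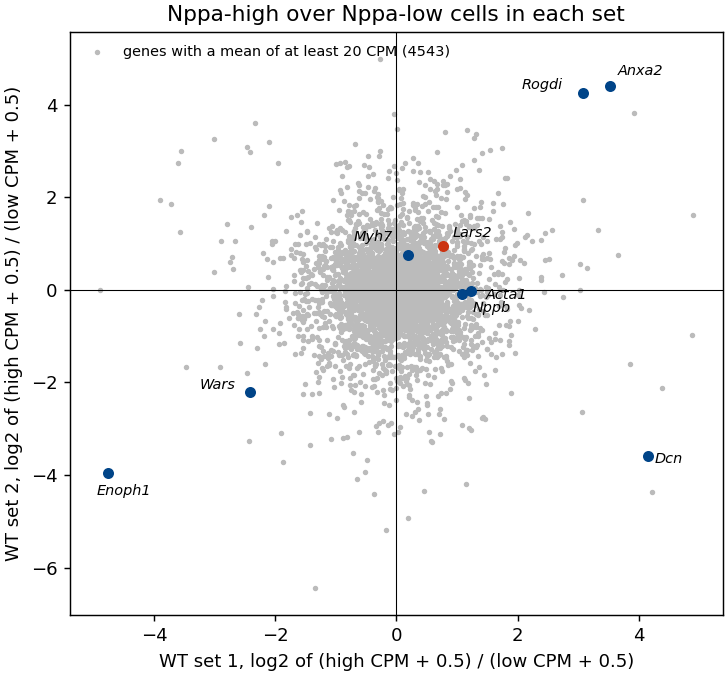
Each point is a gene with a mean of at least 20 CPM (4543 genes), placed by its log2 ratio of the Nppa-high to the Nppa-low sum in WT set 1 (horizontal) and WT set 2 (vertical), with 0.5 CPM added to each sum. The cloud centres on 0, Lars2 (red) lies at 0.78 and 0.95, Anxa2 and Rogdi lie at the upper right, Enoph1 and Wars at the lower left, and Dcn, a fibroblast gene, points up in set 1 and down in set 2.

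Lars2 (chromosome 9, 123366927 to 123462666) encodes the leucyl-tRNA synthetase of mitochondria, which loads leucine for protein synthesis inside the organelle. It stood at 7414, 5792 and 12695 CPM in the low, middle and high terciles of set 1, and at 3748, 3479 and 7259 CPM in those of set 2. The high tercile was therefore above both others in each set, while the middle tercile was the lowest. Lars2 rose by 0.83 on the log2 scale in Nppa-high cells (SE 0.09, edgeR adjusted p = 0.0446). The terciles overlapped widely at the level of cells, which ran from 2374 to 48862 CPM in the low tercile of set 1 and from 2424 to 115472 CPM in its high tercile, with medians of 4616 and 9306.

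The value of Lars2 moved with the mitochondrial share and depth of a cell's library. Nuclear counts enter the CPM of Lars2 and both these measures, so the values that follow are not independent of one another. Over the cells of set 1 and set 2 its Spearman's rho was 0.79 and 0.59 with the mitochondrial share, −0.77 and −0.49 with the nuclear total, and −0.63 and −0.56 with the number of detected genes. With terciles drawn so that each held cells of like depth, the log2 difference was 0.39 (edgeR adjusted p = 1.00). With terciles balanced for mitochondrial share it was 0.55 (edgeR adjusted p = 0.139). For such balanced terciles, here and below, cells were ordered by depth or by that share. Neighbouring cells were then split among the terciles by Nppa, so a high cell could hold less Nppa than a low cell elsewhere. How far Nppa still differed between balanced terciles was not measured, and why values changed under them was not tested. With mitochondrially encoded genes kept in the totals, the log2 difference of Lars2 was 0.47 (edgeR adjusted p = 0.996). That setting, here and below, also ranked the cells anew by Nppa over all counts, so its terciles could hold other cells. Per kilobase of exon, Lars2 averaged 585 CPM over WT cells, against 1.05 to 16.1 CPM for the 16 other genes of mitochondrial aminoacyl-tRNA synthetases, which had a median log2 difference of −0.06. Whether reads of other loci enter the count of Lars2 was not tested. Its call held in 8 of 20 alternatives, and its difference was above 0 in all 20, from 0.39 to 0.99. Adjusted p ran from 1.36e-19, by edgeR with no filter on low counts, to 1. In that unfiltered fit a typical gene's spread came from the trend over all genes and not from its own values. Without WT set 1 its log2 difference was 0.95 and without WT set 2 it was 0.71, in fits that took their spread from the CD8-depleted sets. With both WT sets and the spread pooled with the CD8-depleted terciles, Lars2 did not pass (log2 0.83, edgeR adjusted p = 0.222). Without the cell of each set that had most of it, Lars2 did not pass either (log2 0.64, edgeR adjusted p = 0.0532).

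**Figure D3:**
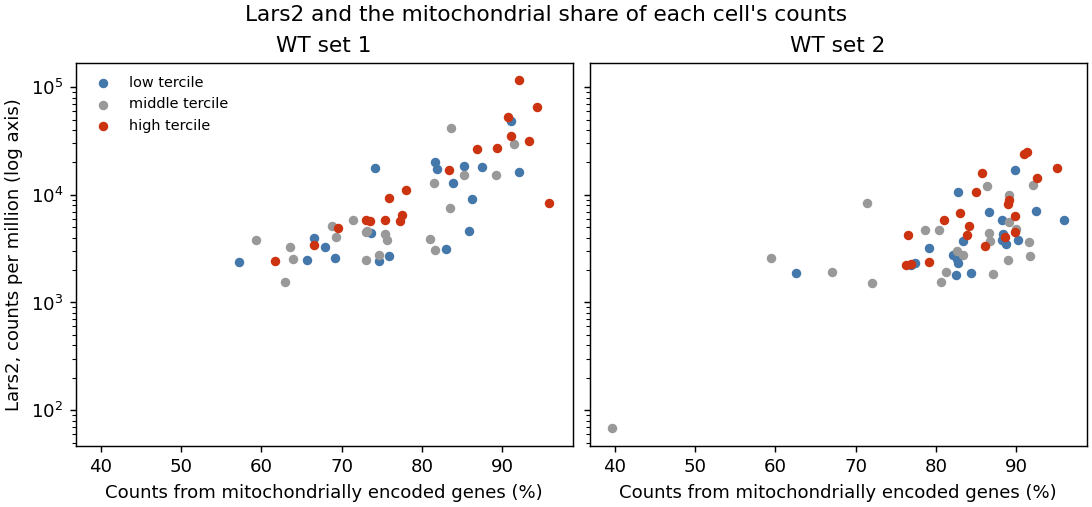
Lars2 in each WT cell, in counts-per-million on a log axis, against the percentage of the cell's counts that came from mitochondrially encoded genes, by set and coloured by Nppa tercile. In both sets Lars2 is high where the mitochondrial share is high, with Spearman's rho of 0.79 and 0.59, and cells of the high tercile lie among the upper points.

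Nppb, the gene of brain natriuretic peptide, is the close relative of Nppa and sits beside it on chromosome 4, at 147985788 to 147987205. It stood at 389.7, 560.3 and 823 CPM in the low, middle and high terciles of set 1, and at 492, 406 and 461 CPM in those of set 2. The levels followed Nppa in set 1 and not in set 2, and the difference did not pass (log2 0.46, SE 0.24, adjusted p = 0.992). Spearman's rho between the 2 genes over cells was 0.26 in set 1 and −0.05 in set 2. Without set 1 the log2 difference was −0.10. At the level of the cell, therefore, a high Nppa did not mark a high Nppb in both sets.

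Other parts of the natriuretic system were mostly scarce in these cells. Of 13 listed genes (peptides, the proteases that cut them, and their receptors and degrading enzymes) 9 were tested, 6 lay above 0 and none passed. Corin, the membrane protease that cuts the atrial peptide precursor, stood at 106 and 101 CPM in the low and high terciles of set 1, and at 50.2 and 73.5 CPM in those of set 2 (log2 0.25, SE 0.40). Npr1, the receptor of both peptides, had at most 1.24 CPM in any tercile.

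The neighbours of Nppa were read to see whether the locus as a whole followed it. Of 11 tested neighbours within the list of 13, 4 lay above 0 and none passed, and 3 were higher and 3 lower in both sets. Clcn6, a gene of a chloride transporter of the endosome that runs towards Nppa from the opposite strand, was chosen after its values were seen. It stood at 0.954, 0.81 and 10.3 CPM in set 1 and at 0.663, 0.433 and 5.11 CPM in set 2 (log2 3.15, SE 1.80, adjusted p = 0.992). It was highest in the high terciles of both sets, but 5 and 4 cells there held any count, and 1 cell held 73.1% and 63% of them. Reads were counted without a statement of strand, so reads of a gene and of one that overlaps it from the other strand cannot be told apart.

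Fetal and stress genes are known to return together with Nppa in loaded hearts. Of 18 tested, 12 lay above 0 with a median log2 of 0.26 beside 0.00 over all genes, 9 (50%) were higher in the high tercile in both sets beside 26.2% of all genes, and 2 (11.1%) were lower in both. None passed. The median of this list was 0.02 with terciles balanced for depth, 0.09 with each set cut into 2 classes, 0.13 with no minimum of detected genes and −0.05 with at least 5000, so its lean depended on which cells were compared. Myh7, the slow beta-myosin heavy chain of the fetal ventricle, stood at 193, 121 and 220.4 CPM in set 1 and at 423, 273 and 709 CPM in set 2. The high tercile had the most Myh7 in each set and the middle one the least, and the difference of 0.45 (SE 0.21) did not pass (adjusted p = 0.992). With cells of at least 5000 genes it was −0.29.

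Acta1, the skeletal actin of the fetal heart, differed between the sets. It stood at 4362, 9950.4 and 10287 CPM in set 1 and at 6657, 3968 and 6506 CPM in set 2 (log2 0.49, SE 0.30). Its levels lay apart in set 1 alone, where the high tercile stood 1.24 above the low one on the log2 scale, against −0.03 in set 2. Without set 2, and with the spread borrowed from the CD8-depleted sets, Acta1 was called (log2 1.17, edgeR adjusted p = 0.00758). Rcan1, a calcineurin inhibitor that calcineurin itself induces, stood at 76.4 and 121 CPM in the low and high terciles of set 1, and at 29.8 and 91.3 CPM in those of set 2 (log2 1.18, SE 0.44, adjusted p = 0.992, and −0.09 with terciles balanced for depth). Pfkp, the platelet form of phosphofructokinase, stood at 65.9 and 85.9 CPM and at 40.6 and 103 CPM (log2 0.86, and 0.29 balanced for depth).

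**Figure D4:**
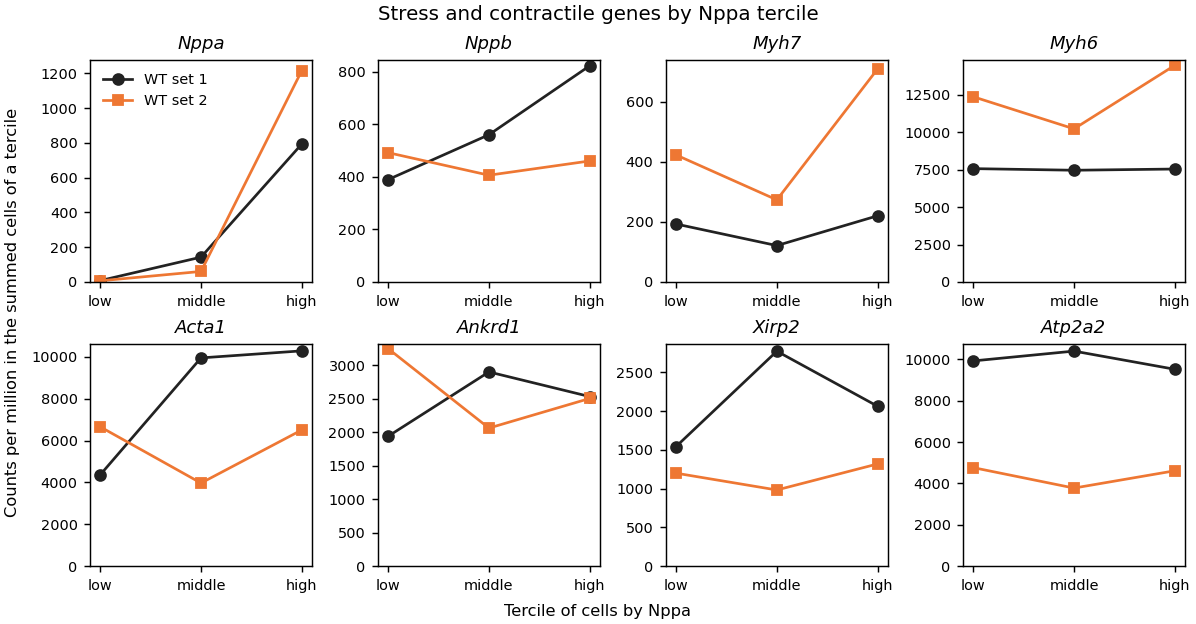
CPM of 8 genes in the summed cells of the low, middle and high Nppa terciles, for WT set 1 (circles) and WT set 2 (squares), each panel with its own axis from 0. Nppa, which chose the terciles, climbs to 794 and 1217 CPM, Nppb and Acta1 are highest in the high tercile of set 1 and in the low tercile of set 2, Myh7 is highest in the high tercile of both sets, and the order of the terciles differs between the sets for the other genes.

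Genes of the working sarcomere and of stretch gave no common direction. Myh6, the adult alpha-myosin heavy chain, stood at 7568 and 7541 CPM in the low and high terciles of set 1, and at 12369 and 14466 CPM in those of set 2 (log2 0.09, SE 0.09). Actc1, the cardiac actin, had a log2 difference of −0.13 (SE 0.06, adjusted p = 0.992). Ankrd1, a stretch-induced protein of the Z-disc and nucleus, stood at 1937 and 2529.5 CPM in set 1 and at 3245 and 2502 CPM in set 2, opposite ways in the 2 sets (log2 −0.05, SE 0.20). Xirp2, an actin-binding protein of the intercalated disc, had a log2 difference of 0.24 (SE 0.20), and Ldb3, a Z-disc scaffold, of −0.25 (SE 0.11). Of 26 sarcomere genes 13 lay above 0 and 13 below, with a median near 0 (−0.0045).

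Calcium handling gave as little. Of 23 tested genes 14 lay above 0 (median log2 0.03), and none passed. Atp2a2, the calcium pump of the sarcoplasmic reticulum, stood at 9922 and 9517 CPM in set 1 and at 4763 and 4610.1 CPM in set 2 (log2 −0.08, SE 0.09). Sri, whose product sorcin binds the ryanodine receptor, stood at 70.2 and 145 CPM and at 31.7 and 71 CPM (log2 1.07, SE 0.38, and 0.45 with terciles balanced for depth). Calm2, 1 of the calmodulin genes, stood at 294 and 201 CPM and at 144 and 79.3 CPM (log2 −0.73, SE 0.24, adjusted p = 0.992). Both genes took the same direction in each set without passing.

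Transcripts that mark atrial muscle were rare and came from very few cells. Myl7, the atrial regulatory light chain, stood at 0, 1.22 and 17 CPM in set 1 and at 0.829, 0.65 and 24.4 CPM in set 2, with the high tercile far above the others in both (log2 5.84, SE 1.68, edgeR adjusted p = 0.992, DESeq2 adjusted p = 0.0225). It was read in 4 cells of each set, and the highest cell held 85.2% of the counts in set 1 and 92.1% in set 2, each in a high tercile. In set 2 that cell ranked 2 of 62 by Nppa at 7306 CPM. It also held 20 of 20 counts of Sln, the atrial regulator of the calcium pump, and 14 of 17 counts of Myl4, the atrial essential light chain. In set 1 the Myl7 cell ranked 17 of 59 by Nppa at 372 CPM and was another cell than those with the most Myl4 and the most Sln. The Myl7 and Myl4 cells of set 1 were the only WT cells with more than 1000 CPM of fibroblast markers, at 3350 and 1518 CPM, while the cell of set 2 had no count of them. The part of those transcripts was not tested. The 9 atrial markers on the list, of which 3 could be tested, summed to 10.2, 17.5 and 43.1 CPM in the terciles of set 1, and to 18.2, 24.6 and 59.6 CPM in those of set 2. With each gene's highest cell left out, Myl7 was too scarce to be tested.

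Transcription factors known to act on the Nppa promoter were looked up next as a list, since its upstream letters include GATA and NKX2-5 motifs. Levels of the GATA factors and NKX2-5 themselves are not given here. Of 23 tested regulators 12 lay above 0, with a median log2 of 0.13, 6 (26.1%) were higher and 7 (30.4%) lower in both sets, and none passed, shares near those of all genes. Jarid2, a repressor of heart growth genes that is known in mouse to act on Nppa, stood at 24.9 and 39.7 CPM in set 1 and at 17.6 and 48.1 CPM in set 2 (log2 1.04, SE 0.56). Tbx5, a T-box activator of Nppa, stood at 8.04 and 12.7 CPM and at 12.8 and 28.4 CPM (log2 0.88, SE 0.73). Both were higher in the high tercile of each set, by less than the test could call. With terciles balanced for depth their differences were −0.11 and 0.41. They were named from the side of the list's median, while 11 of the 23 regulators lay below 0.

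Several less abundant genes took large differences of the same sign in both sets. The 10 smallest p-values in each direction were named by rule, and besides Lars2 none of them passed. Anxa2, which encodes a calcium-dependent membrane-binding annexin, stood at 5.86, 30 and 73 CPM in set 1 and at 2.65, 58 and 66.5 CPM in set 2. The levels ascended with Nppa through all 3 terciles in each set (log2 3.99, SE 0.66, edgeR adjusted p = 0.384, DESeq2 adjusted p = 3.76e-07). Its difference was 0.81 with terciles balanced for depth, 0.87 balanced for mitochondrial share and 1.00 with each set cut into 2 classes. In cells thinned to 50000 counts it was 1.73, but those cells were ranked anew by thinned Nppa, so the terciles could hold other cells. The cell with the most Anxa2 in set 1, holding 24.4% of the counts, was the cell with the most fibroblast markers. Anxa2 was read in 6 and 12 cells of the low and high terciles of set 1, and in 2 and 6 cells of those of set 2. With thinned counts in the terciles of the main division, the share of cells with a count was 15.8% and 52.6% in set 1. It was 5% and 30% in set 2.

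Rogdi, a gene of a leucine zipper protein, ascended as well, from 5.45 to 49.7 CPM in set 1 and from 3.98 to 85.4 CPM in set 2 (log2 3.69, SE 0.67, adjusted p = 0.543). It was at 1.61 with terciles balanced for depth, 1.43 balanced for mitochondrial share and 1.38 with 2 classes. Cenpf, a centromere protein, stood at 2.18 and 40.2 CPM and at 3.48 and 55.7 CPM (log2 4.06, SE 0.80, adjusted p = 0.749), but 1 cell held 84% of the counts in the high tercile of set 2. Its difference was −0.62 with terciles balanced for depth and −0.80 balanced for mitochondrial share. Mgst1, a microsomal glutathione transferase, stood at 79 and 182 CPM and at 26.5 and 68.9 CPM. Cyb5r3, a cytochrome b5 reductase, stood at 34.7 and 89.7 CPM and at 61.8 and 129 CPM. Ddo, D-aspartate oxidase, stood at 16.2 and 74.6 CPM and at 10.9 and 35.6 CPM. These 3 enzymes had log2 differences of 1.19 to 1.93 and none passed. Balanced for mitochondrial share, Mgst1 was at 0.64, Cyb5r3 at 0.79 and Ddo at 0.66.

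In the other direction Enoph1, an enzyme of methionine salvage, stood at 156, 19 and 5.25 CPM in set 1 and at 10.3, 1.95 and 0.189 CPM in set 2 (log2 −5.03, SE 0.72, adjusted p = 0.211). It was read in 5 cells of the low tercile of set 1 and in 3 of the high one, and 1 cell held 93.4% of the counts of the low tercile there, so its values rest on a handful of cells. Wars, the cytosolic tryptophanyl-tRNA synthetase, stood at 42 and 7.41 CPM and at 53.6 and 11.2 CPM (log2 −2.41, SE 0.56, adjusted p = 0.992). With terciles balanced for depth Wars was at −0.61 and Enoph1 at −2.88, and with those balanced for mitochondrial share Wars was at −0.84. Art1, an ADP-ribosyltransferase of striated muscle, was read in nearly every cell and stood at 171, 132 and 104 CPM in set 1 and at 217, 129.7 and 81.8 CPM in set 2 (log2 −1.08, SE 0.28, adjusted p = 0.992, and −0.40 balanced for depth). Among abundant genes, Mb, the oxygen-binding myoglobin, stood at 18246 and 15518 CPM and at 26166 and 24072 CPM (log2 −0.20, SE 0.05, adjusted p = 0.992).

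Genes of energy metabolism leaned to the low side in small steps. Of 28 genes of glucose use, 23 lay below 0 (median log2 −0.21) and 15 (53.6%) were lower in both sets beside 23.4% of all genes, while 2 (7.14%) were higher in both. None passed. Aldoa, the glycolytic aldolase of muscle, stood at 5569 and 4482 CPM in the low and high terciles of set 1, and at 7227 and 6056 CPM in those of set 2 (log2 −0.31, SE 0.09, adjusted p = 0.992). Pdk2, a kinase that holds back pyruvate dehydrogenase, stood at 552 and 431 CPM and at 531 and 377 CPM (log2 −0.45, SE 0.17). Gapdh, another glycolytic enzyme, had a log2 difference of −0.16 (SE 0.07). All 3 genes were lower in the Nppa-high cells of each set, by amounts that the test over all genes did not call.

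Fat oxidation leaned the same way. Of 28 tested genes 22 lay below 0 (median log2 −0.14), 11 (39.3%) were lower in both sets and 1 (3.57%) was higher in both. Acadm, the medium-chain acyl-CoA dehydrogenase, stood at 1001 and 734 CPM in set 1 and at 1069 and 935 CPM in set 2 (log2 −0.35, SE 0.14, adjusted p = 0.992). Hadhb, a subunit of the trifunctional protein, stood at 2608 and 2367 CPM and at 1836 and 1373 CPM (log2 −0.30, SE 0.13), and Acaa1a, a peroxisomal thiolase, at 56.5 and 32.6 CPM and at 106 and 59.8 CPM. The medians of the glucose and fat oxidation lists lay below 0 in all 20 alternatives, at −0.23 to −0.06 and −0.33 to −0.01, nearest to 0 for fat oxidation with mitochondrially encoded genes kept. With terciles balanced for depth, however, Hadhb had a log2 difference of 0.11 and Pdk2 of 0.03.

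The respiratory chain showed the lean in some of its parts. For complexes III and IV and ATP synthase, 27 of 37 nuclear genes lay below 0 (median log2 −0.06, but 0.05 with mitochondrially encoded genes kept) and 20 (54.1%) were lower in both sets, led by Atp5c1, the gamma subunit of ATP synthase (log2 −0.26, SE 0.12), and Uqcrc2, a core subunit of complex III (log2 −0.27, SE 0.14, but 0.10 with those genes kept). For complex I, 7 of 37 genes (18.9%) were higher and 7 lower in both sets, with a median of −0.03. With mitochondrially encoded genes kept and cells ranked anew, the median of the TCA cycle was 0.03. That of the creatine and adenine nucleotide shuttle was 0.03 as well. Both lie on the other side of 0 from the values that follow. Of 23 TCA cycle genes 9 (39.1%) were lower in both sets (median −0.14), among them Sdhc, a subunit of succinate dehydrogenase, at 866 and 696 CPM and at 741 and 556 CPM. In the creatine and adenine nucleotide shuttle 12 of 14 lay below 0 (median −0.11), with Vdac2, a channel of the outer mitochondrial membrane, at 689 and 581 CPM and at 631 and 466 CPM. No gene of these lists passed. The difference between lists was not tested.

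Of 18 regulators of energy genes 8 (44.4%) were lower in both sets (median log2 −0.19, but 0.07 with terciles balanced for depth). Nr1d1, a repressor of the circadian clock, stood at 124 and 78.6 CPM in set 1 and at 152 and 62.7 CPM in set 2 (log2 −0.98, SE 0.32, adjusted p = 0.992). Hspb7, a small heat shock protein of heart muscle, stood at 1168 and 986 CPM and at 1471 and 1096 CPM (log2 −0.36, SE 0.13), though of the 22 tested heat shock genes 10 lay above 0 and 6 (27.3%) were lower in both sets, near the share of all genes. Dusp1, an immediate early phosphatase, stood at 41.6 and 13.9 CPM and at 70.1 and 14.4 CPM (log2 −1.90, SE 0.58, adjusted p = 0.992, and −1.10 balanced for depth), though the 15 tested immediate early genes did not share a direction, with 4 higher and 6 lower in both sets.

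**Figure D5:**
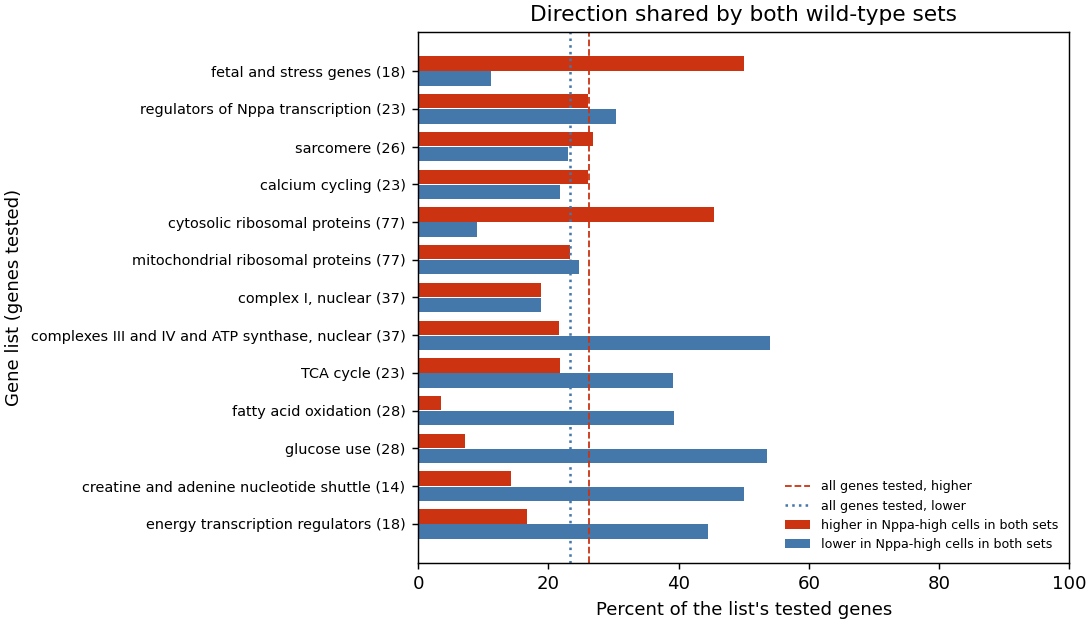
Share of the tested genes of 13 lists that were higher (red) or lower (blue) in Nppa-high than in Nppa-low cells in both WT sets, with dashed and dotted lines at the shares over all genes, 26.2% and 23.4%. The red bars of the fetal and stress list (50%) and the cytosolic ribosomal list (45.5%) pass the dashed line, and the blue bars of glucose use (53.6%) and of complexes III and IV and ATP synthase (54.1%) pass the dotted line. With mitochondrially encoded genes kept and cells ranked anew, the median log2 of the ribosomal list was −0.01. That of complexes III and IV and ATP synthase was 0.05.

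Genes of cytosolic ribosomal proteins leaned to the high side by a small amount. Of 77 tested genes 55 lay above 0 (median log2 0.04, but −0.01 with mitochondrially encoded genes kept), 35 (45.5%) were higher in both sets and 7 (9.09%) lower in both, and none passed. Rps4x stood at 329.7 and 420.1 CPM in set 1 and at 282 and 389 CPM in set 2 (log2 0.38, SE 0.19), and Rpl23 at 236 and 299 CPM and at 197 and 284 CPM (log2 0.41, SE 0.22). The 77 tested genes of mitochondrial ribosomal proteins had a median of −0.05, with 18 higher and 19 lower in both sets.

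Transcripts of fibroblasts were most abundant in the high tercile of set 1 and least in that of set 2. The 11 fibroblast markers summed to 19.3, 30.3 and 426 CPM in the low, middle and high terciles of set 1, and to 47.6, 22.3 and 11.6 CPM in those of set 2. Of the 6 markers tested, 5 lay above 0. Dcn, the collagen-binding proteoglycan decorin, stood at 15.5 and 284 CPM in set 1 and at 16.9 and 0.947 CPM in set 2, opposite ways (log2 1.79, SE 1.67, adjusted p = 0.998). In the high tercile of set 1 a single cell held 63.5% of it. In that tercile 2 cells had more than 1000 CPM of fibroblast markers, and without them the difference of Dcn was −1.05, while Lars2 was still called (log2 0.95, adjusted p = 0.0319). The markers Pdgfra and Dpt had at most 0.463 CPM in any tercile. Endothelial markers were read in every tercile, summing to 2105, 2114 and 2278 CPM in set 1 and to 889.7, 1999.9 and 1164 CPM in set 2. Of 10 tested, 8 lay above 0 (median log2 0.59, set medians 0.64 and 0.40) and 4 (40%) were higher and 1 (10%) lower in both sets. The 8 mural markers summed to 431, 248 and 640.1 CPM and to 357, 305 and 245 CPM, and of 7 tested 2 lay above 0 and 3 (42.9%) were lower in both sets. None of these markers passed.

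Matrix genes had medians of opposite sign in the 2 sets, 1.91 and −0.73. Of 22 tested, 14 lay above 0 (median log2 0.82), 7 (31.8%) were higher and 4 (18.2%) lower in both sets, and without the 2 cells rich in fibroblast markers the median was 0.21. The members named next were higher in the high tercile of each set. Col3a1, a fibrillar collagen, stood at 0.136 and 19.6 CPM in set 1 and at 0.166 and 2.84 CPM in set 2 (log2 5.64, SE 2.01). Sparc, a matrix protein also made by heart muscle and endothelium, stood at 101 and 209.7 CPM and at 59.5 and 98.5 CPM (log2 0.89, SE 0.37, adjusted p = 0.992). Col1a1, the fibrosis marker, stood at 0 and 4.94 CPM and at 1.82 and 3.22 CPM. Interferon and antigen presentation genes had set medians of 1.16 and 0.00. The 13 leukocyte markers summed to 24.6 to 34.4 CPM in set 1 and to at most 9.78 CPM in set 2. The part of such transcripts in the differences between terciles was not tested.

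The repair genes in the study's panel were low and uneven. Csf1, a macrophage growth factor, stood at 21.7 and 18.7 CPM in set 1 and at 5.31 and 14 CPM in set 2 (log2 0.46, SE 0.90). Igf1r, the receptor of insulin-like growth factor, stood at 17 and 5.71 CPM and at 15.4 and 11.9 CPM (log2 −0.86, SE 0.96). Neither difference was larger than its standard error.

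The genes most like Nppa were sought cell by cell as well, by Spearman's rho over the 59 and 62 cells of the sets among 4068 genes detected in at least 50% of the cells of each set. These values describe cells that share libraries and depth, and carry no test. By the lower of the 2 values, Ezr, an actin-membrane linker, came first at 0.47 and 0.29, and Lars2 was among the first 8 at 0.24 and 0.29. At the other end stood Syncrip, an RNA-binding protein, at −0.28 and −0.28, and Nmd3, an export adaptor of the large ribosomal subunit, at −0.29 and −0.26. Acy3, an aminoacylase, stood at −0.25 in both sets, and at 89.8 and 27.8 CPM in the low and high terciles of set 1 and 83.6 and 31.4 CPM in those of set 2. No gene exceeded the value of Ezr, 0.29, in both sets, and none lay below −0.28 in both.

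The same division was made in the CD8-depleted cells to see whether other genes went with Nppa there. These libraries were shallower, with 1680474 to 2916180 nuclear counts per sum. Their Nppa stood at 262 and 5400 CPM in the low and high terciles of set 1 and at 712 and 15970 CPM in those of set 2. In a fit of all 12 sums, 0 of 10903 genes passed in CD8-depleted cells (0%), with 529 at an unadjusted p under 0.05. Myh7 stood at 964 and 1566 CPM and at 1232 and 4516 CPM there (log2 1.30, SE 0.26, adjusted p = 0.214), and in WT cells its difference was 0.45. Gja1, the gap junction protein connexin 43, was picked by hand, outside the rule that named genes. It stood at 57 and 183 CPM and at 63.1 and 158 CPM (log2 1.45, SE 0.28, edgeR adjusted p = 0.214). In WT cells it stood at 285 and 386 CPM and at 117 and 118 CPM. Nppb stood at 532 and 848 CPM and at 804 and 1387 CPM (log2 0.68, SE 0.27, adjusted p = 0.922). Each of these genes was higher in the high tercile of both CD8-depleted sets without passing.

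The difference between the contrasts was itself tested and passed for 0 of 10903 genes (0%), with 459 at an unadjusted p under 0.05. It was −0.86 (SE 0.36) for Myh7 and −1.26 (SE 0.39) for Gja1, WT minus CD8-depleted, and 0.59 (SE 0.21) for Lars2, each with an adjusted p of 1. Lars2 stood at 7255 and 6339.8 CPM in the low and high terciles of CD8-depleted set 1 and at 9016 and 15039 CPM in those of set 2. Anxa2 stood at 64.6 and 36.3 CPM and at 35.7 and 97 CPM, so its order in WT cells was found in 1 of the 2 CD8-depleted sets. In CD3e -/- set 2, divided likewise and given with no test, Nppa stood at 427 and 18062 CPM, Myh7 at 1207 and 3345 CPM, and Nppb at 156 and 581 CPM in the low and high terciles.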

How the data were processed

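The authors deposited a table of read counts per gene and cell (21872 genes), and the labels name fastp 0.21.0, STAR 2.7.5c, featureCounts and the build mm10. The study's methods describe another aligner, an older build and FPKM values, and no strand setting is given in the sources used here. A minimum of 3000 detected genes removed 7 WT cells, and 13 mitochondrially encoded genes were left out of totals and tests. No WT columns were identical. CPM, counts-per-million, is relative to the nuclear counts of the cell or sum. Each tercile's counts were summed per set, giving 6 sums. The test was edgeR 4.0.16 (R 4.3.3), quasi-likelihood, with filterByExpr, TMM factors, tercile and set as terms, Nppa left out, the contrast high minus low, and Benjamini-Hochberg adjustment over all genes. SE is of the log2 difference. The set is a block because the terciles of a set share its libraries. CD8-depleted terciles were added in a fit of 12 sums. DESeq2 1.42.0, limma 3.58.1 and SciPy 1.17.1 served the alternatives and Spearman's rho. Scripts were tested on simulated data. Named genes were the panel, genes that passed or the 10 smallest p-values in each direction (averaging 20 CPM or more, same sign in both sets), up to 4 members a list, and the genes with the most extreme rho. Others, Clcn6 and Gja1 among them, were added outside this rule. The cells, genes and lists were chosen with earlier results of these data known. Counting error and the depth of 5280811 to 9876403 nuclear counts per sum limit scarce genes. Reads carry no molecular identifiers. Doublets were not called, since cells were picked singly.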

Additional observations from a re-analysis of the deposited data

Results flagged for a closer look

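The list medians of mitochondrial ribosomal proteins, all near 0, lay on opposite sides of 0 in the 2 groups of mice. The median log2 difference between Nppa-high and Nppa-low cells was −0.039 in WT set 1 and −0.0126 in WT set 2, against 0.0752 in CD8-depleted set 1 and 0.0505 in CD8-depleted set 2. Single genes of the list did not share a sign, since 30 of 77 lay above 0 in WT cells. The difference between the groups was not tested.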

How the results depend on the processing

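The number of genes called, 1 with the replicate block, was 0 with no replicate block, 0 with mitochondrially encoded genes kept, 0 with no minimum of detected genes, 0 with a minimum of 5000, 0 with the cells of each set divided in 2 in place of 3, 0 with terciles balanced for depth, 0 with terciles balanced for mitochondrial share, 0 with each gene's highest cell left out, 0 with the spread pooled with CD8-depleted terciles and 0 with the cell with the most Nppa left out of each set. It was 6 with the high and low terciles alone, 25 with DESeq2 and 27 with no filter on low counts, and 2 to 7 without WT set 1 or WT set 2 (without set 1 the genes were Gimap6 and Rgcc, chosen after their values were seen). In the fit with no filter on low counts, a typical gene's spread came from the trend over all genes. The cells with the most Nppa and those with fibroblast RNA were left out as alternatives chosen after seeing the data. Of 1092 values of named genes under alternatives, 12 no longer passed, all of them of Lars2, 17 newly passed (Anxa2, Rogdi and Enoph1 under 3 alternatives each, Acta1 and Cenpf under 2, and Myl7, Wars, Mb and Dcn under 1), and 37 took the other sign, none of which passed. Balanced for depth, the log2 difference was −0.0892 for Rcan1, −0.111 for Jarid2, −0.125 for Myh6, −0.204 for Xirp2, −0.625 for Cenpf, 0.0249 for Atp5c1, 0.028 for Pdk2 and 0.109 for Hadhb. Balanced for mitochondrial share, it was −0.026 for Myh6, −0.2497 for Corin, −0.797 for Cenpf and 0.228 for Ankrd1. With cells thinned to 50000 counts and ranked anew by thinned Nppa it was −0.0934 for Myh6. With cells weighted alike it was −0.051 for Myh6 and −0.516 for Dcn. Without cells with fibroblast RNA, Dcn was at −1.045. Without each gene's highest cell, Csf1 was at −0.039, Ankrd1 at 0.0356 and Atp5c1 at 0.0398. With 2 classes, Corin was at −0.0859 and Ankrd1 at 0.0122. With mitochondrially encoded genes, Myh6 was at −0.0917, Actc1 at 0.0392 and Uqcrc2 at 0.0981. With at least 5000 genes a cell, Gja1 was at −0.0364, Myh7 at −0.286, Corin at −0.383, Csf1 at −0.505, Igf1r at 0.642 and Enoph1 at 1.73. Without 1 WT set or the other, the range was −0.0341 to 1.17 for Acta1, −0.0968 to 1.01 for Nppb, −0.135 to 0.547 for Corin, −0.069 to 0.225 for Myh6, −0.376 to 0.321 for Ankrd1, −0.277 to 1.39 for Csf1 and −4.11 to 4.12 for Dcn. The causes were not tested.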
